A study of Mus musculus with 21 samples.

Results

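The genes described here are 9 chemokines and chemokine receptors of the mouse brain, namely the receptors Ccr1, Cxcr4 and Ackr3 and the ligands Ccl25, Ccl27a, Cxcl12, Cxcl14, Cxcl16 and Cx3cl1. They are 9 of 16318 genes in the table of counts, and all 9 were found by symbol. They were selected on measured values of the treatment comparison, in which Ccr1 was about halved, so their treatment values below are a description, with no test of the members. RNA came from whole brains of 21 senescence accelerated mouse prone 8 (SAMP8) mice, an inbred line that shows early memory deficits without a transgene. Of these, 12 received phosphate-buffered saline (PBS; 6 female, 6 male) and 9 received HsTX1[R14A] (3 female, 6 male), a scorpion toxin analogue that blocks the voltage-gated potassium channel Kv1.3, spelled HxTX1[R14A] in the sample titles. Doses of 1 mg/kg were injected under the skin on alternate days over 8 weeks, from 4 to 6 months of age, and every mouse of both groups was SAMP8, so a normally ageing strain does not enter these comparisons. In RNA from whole brain, fewer cells of a type and less RNA per cell cannot be told apart.

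Chemokines are small secreted or membrane-bound proteins that direct the movement of cells through receptors coupled to inhibitory G proteins. They are classed by the spacing of their first cysteines, as CC, CXC or CX3C. In the brain, Cx3cl1 (fractalkine) is made by neurons and read by its receptor Cx3cr1 on microglia, while Cxcl12 guides migrating cells through Cxcr4 and is cleared by the atypical receptor Ackr3.

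The spacing that defines the ligand classes is shown in the coding sequences below, each given 5′ to 3′ on the coding strand from GENCODE transcripts of GRCm38. The first cysteine codons are in capitals.
Ccl25: gcctttgaagacTGCTGCctgggttaccag
Ccl27a: tccagcactagcTGCTGTactcagctctat
Cxcl12: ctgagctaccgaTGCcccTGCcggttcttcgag
Cxcl14: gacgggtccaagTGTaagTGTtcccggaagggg
Cxcl16: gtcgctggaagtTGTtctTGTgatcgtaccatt
Cx3cl1: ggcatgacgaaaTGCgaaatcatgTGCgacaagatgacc
The capital codons are adjacent in the 2 CC ligands, with 0 codons between them. They have 1 codon between them in the 3 CXC ligands and 3 codons in Cx3cl1.

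The stretch of Cxcl12 lies in exon 2 of 4 at chr6:117171496-117171528 (+), and that of Cx3cl1 in exon 2 of 3 at chr8:94778039-94778077 (+). That of Ccl25 lies in exon 3 of 6 at chr8:4353885-4353914 (+), that of Ccl27a in exon 2 of 3 at chr4:41769933-41769962 (-) and that of Cxcl16 in exon 2 of 5 at chr11:70459115-70459147 (-). The stretch of Cxcl14 joins exons 1 and 2 of 4 and spans chr13:56295903-56296113 (-), so its letters leave out an intron.

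The 3 receptors are shown at the conserved motif at the inner end of the third membrane helix, where G-protein-coupled receptors contact the G protein. The fifth codon of the motif is in capitals.
Ccr1: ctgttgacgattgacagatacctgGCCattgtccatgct
Cxcr4: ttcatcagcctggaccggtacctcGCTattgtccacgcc
Ackr3: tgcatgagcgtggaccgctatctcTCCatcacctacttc
The codon in capitals encoded alanine in Ccr1 and Cxcr4 and serine in Ackr3, which is known as a receptor that takes up Cxcl12 without signaling through G proteins. All 3 stretches lie in exon 2 of 2, at chr9:123964078-123964116 (-), chr1:128589494-128589532 (-) and chr1:90214229-90214267 (+).

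Library totals ran from 14917174 to 36207554 estimated counts in the PBS-treated mice and from 17552413 to 47613792 in the HsTX1[R14A]-treated mice. The libraries also differed in how strongly they favored long transcripts. Library-scaled counts (CPM) are scaled here by each library's total and a factor from the trimmed mean of M values. The favor was measured on log2 CPM, less each gene's mean over the 21 mice. The slope of these deviations across genes on log2 transcript length was -0.0764 ± 0.161 (SD, n = 12) in PBS-treated and 0.102 ± 0.119 (n = 9) in HsTX1[R14A]-treated brains. A negative slope thus means less favor for long transcripts than in the average of these libraries. The names of the libraries came in a pair of forms, SAMP8 (10 PBS, 5 HsTX1[R14A]) and SAMP (2 PBS, 4 HsTX1[R14A]), and what the form marks was not given in the sources used here. Both facts move with treatment, and their values stand beside the results they touch.

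Levels of the 9 genes were set side by side only as CPM per kilobase of the longest annotated transcript. In the PBS-treated brains Ccl27a (147 ± 41.7; SD, n = 12), Cx3cl1 (124 ± 48.5) and Cxcl14 (74.3 ± 10.1) stood highest. These were at percentiles 97.8, 97.4 and 95.5 of all genes on this scale. Cxcl12 followed at 5.42 ± 0.780, Ackr3 at 3.47 ± 0.564, Ccl25 at 1.96 ± 0.545 and Cxcr4 at 1.66 ± 0.578. Ccr1 at 0.405 ± 0.143 and Cxcl16 at 0.185 ± 0.0511 were lowest, at percentiles 10.1 and 3.3. The ranges of neighbors in this order overlapped among the PBS-treated mice except between Cxcl14 and Cxcl12 and between Cxcr4 and Ccr1, so the genes fall into 3 tiers. In the HsTX1[R14A]-treated mice Cx3cl1 (182 ± 46.9, n = 9) stood above Ccl27a (108 ± 26.6). The treatment log2 fold changes of these genes were 0.63 ± 0.21 (SE) and -0.51 ± 0.15. With the length slope as a term they were 0.01 ± 0.12 and -0.11 ± 0.12, and the part of the slope in this order was not tested. A longest transcript of 996 bases for Ccl27a and of 5627 bases for Cxcl12 enters these values, and a brain that uses other isoforms would have other values.

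**Figure D1:**
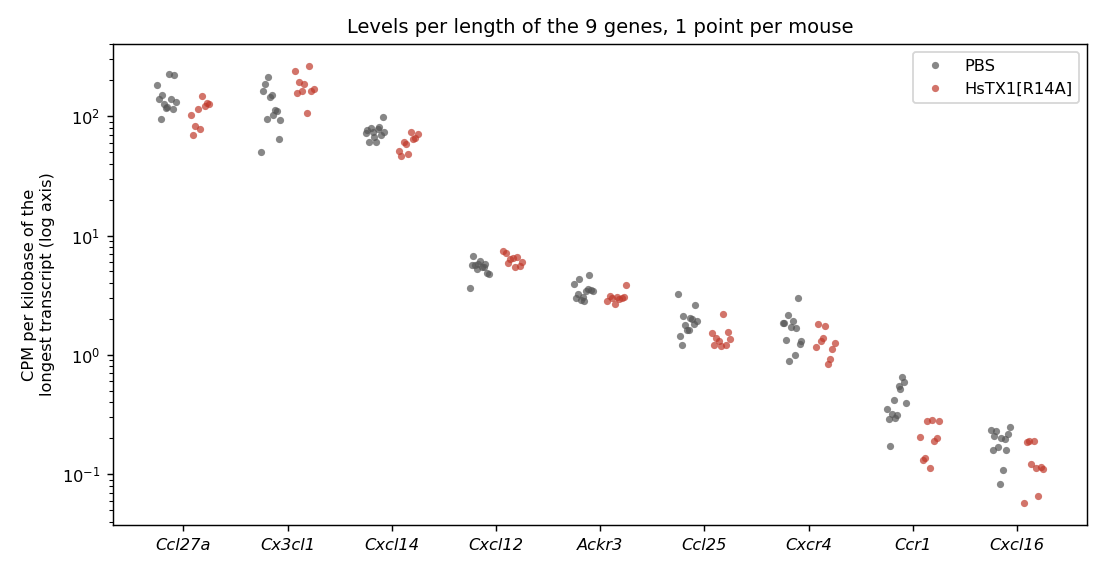
CPM per kilobase of the longest transcript (log axis) of the 9 genes in each of 12 PBS-treated (grey) and 9 HsTX1[R14A]-treated (red) SAMP8 brains, 1 point per mouse. Ccl27a, Cx3cl1 and Cxcl14 form an upper tier, and Ccr1 and Cxcl16 lie lowest.

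Across the 16303 genes tested, HsTX1[R14A] and PBS differed for 5144 (edgeR, false discovery rate (FDR) of at most 0.05, sex in the model), which is 31.6% of genes tested (15.5% higher and 16.1% lower with HsTX1[R14A]). By the same rule 6 of the 9 genes were called, Cx3cl1 and Cxcl12 higher and Ccr1, Ccl25, Ccl27a and Cxcl14 lower. Because this contrast was in view when the genes were listed, nothing is read from that count. The median log2 fold change was -0.35 over the 9 genes, 7 of them negative, and -0.01 over all genes, of which 51.4% were negative. The count was 2 without PBS mouse 90 and 3 without HsTX1[R14A] mouse 71, 81 or 98, each left out alone.

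Ccr1, a receptor of Ccl3 and Ccl5 on monocytes and other leukocytes, had the largest difference of the 9 genes. In PBS-treated brains it ranged from 0.493 to 1.84 CPM with a median of 1.05, and in HsTX1[R14A]-treated brains from 0.321 to 0.809 with a median of 0.570. All 9 treated mice lay below the PBS median and 3 lay below the lowest PBS mouse, but the groups overlapped. The means were 1.15 ± 0.406 (SD, n = 12) and 0.573 ± 0.192 (n = 9) CPM, giving a log2 fold change of -1.09 ± 0.19 (SE). These values rest on 13 to 48 counts per PBS library and 9 to 29 per HsTX1[R14A] library. The log2 fold change was -0.88 ± 0.22 once the length slope was a term, -1.19 ± 0.23 in the 15 mice of name form SAMP8 and -0.69 ± 0.35 in the 6 mice of form SAMP. It ran from -1.17 to -0.997 as each mouse was left out.

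Ccr1 lies on chromosome 9 (123962124 to 123968692, minus strand, GRCm38). Markers of the myeloid cells that could carry it were counted by the rule above, beside 16.1% of all genes called lower. Of 20 microglia markers, 9 were lower and 0 higher. Their summed level ran from 648 to 917 CPM in PBS-treated and from 548 to 788 CPM in HsTX1[R14A]-treated brains. A negative log2 fold change was found for 17 of these markers and a positive one for 3. The 3 were Sall1 (0.49 ± 0.22), Csf1r (0.28 ± 0.15) and Selplg (0.04 ± 0.10). Of 7 markers of border macrophages and blood myeloid cells analysed, 3 were lower (Mrc1, F13a1 and Pf4), with summed levels of 14.4 to 25.9 and 14.8 to 21.4 CPM. The other 4 were not called, with log2 fold changes of -0.22 ± 0.26 for Cd163, -0.34 ± 0.30 for Lyve1, 0.11 ± 0.12 for the monocyte marker Ly6c2 and 0.14 ± 0.12 for the neutrophil marker Csf3r. Of further blood myeloid markers, S100a8, S100a9 and Ccr2 were not analysed here. The paper reports that brains were removed after perfusion with cold PBS, and how much blood remained was not measured here. The part of these cells in the Ccr1 difference was not tested.

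Cxcr4, the signaling receptor of Cxcl12, ranged from 1.61 to 5.43 CPM (median 3.06) in PBS-treated and from 1.52 to 3.27 CPM (median 2.28) in HsTX1[R14A]-treated brains. The ranges overlapped, with 7 of 9 treated mice below the PBS median, and the highest value, 5.43 CPM, was that of PBS mouse 83. Means were 3.0 ± 1.04 and 2.31 ± 0.592 CPM, which gave a log2 fold change of -0.35 ± 0.19 that fell in size to -0.21 without that mouse. With the length slope as a term it was -0.45 ± 0.24.

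Ackr3 ranged from 8.68 to 14.2 CPM (median 10.5) with PBS and from 8.23 to 11.9 (median 9.24) with HsTX1[R14A]. Of 9 treated mice 8 lay below the PBS median, and 1 lay below the PBS minimum. Means were 10.7 ± 1.73 and 9.41 ± 1.02 CPM. The log2 fold change was -0.19 ± 0.09, and -0.10 ± 0.11 once the length slope was a term. It was -0.28 ± 0.11 in the 15 mice of form SAMP8 and 0.14 ± 0.18 in the 6 of form SAMP, so its direction was not shared by these sets.

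Cx3cl1, the membrane-anchored CX3C ligand of neurons, had the largest positive difference of the 9 genes. It ranged from 167 to 707 CPM (median 369) in PBS-treated and from 352 to 875 CPM (median 554) in HsTX1[R14A]-treated brains. Of 9 treated mice, 8 lay above the PBS median and 2 above the highest PBS mouse. Means were 410 ± 161 and 603 ± 156 CPM, which gave a log2 fold change of 0.63 ± 0.21. With the length slope as a term the log2 fold change was 0.01 ± 0.12, and within the 15 and the 6 mice of each name form it was 0.57 ± 0.24 and 0.31 ± 0.24.

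Cxcl12, the ligand of Cxcr4 and Ackr3, ranged from 20.3 to 38.2 CPM (median 31.2) with PBS and from 30.6 to 42.1 (median 36.1) with HsTX1[R14A]. The treated mice lay in the upper part of the PBS range, with 7 of 9 above its median and 2 above its maximum. Means were 30.5 ± 4.39 and 35.6 ± 3.87 CPM. The log2 fold change of 0.23 ± 0.09 was 0.02 ± 0.07 once the length slope was a term. In the 15 mice it was 0.23 ± 0.11 and in the 6 mice 0.19 ± 0.17.

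Cxcl14, a CXC ligand made by some cortical and hippocampal interneurons, ranged from 111 to 180 CPM (median 134) with PBS and from 85.1 to 134 (median 111) with HsTX1[R14A]. Of 9 treated mice, 8 lay below the PBS median and 4 below the lowest PBS mouse. Means were 136 ± 18.5 and 109 ± 17.7 CPM, which gave a log2 fold change of -0.34 ± 0.09. It was -0.17 ± 0.09 once the length slope was a term, -0.42 ± 0.12 in the 15 mice and -0.13 ± 0.18 in the 6 mice.

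Cxcl16, a transmembrane ligand of Cxcr6, was at the edge of what these libraries count, with 8 to 21 counts in PBS and 3 to 25 in HsTX1[R14A] libraries. Its levels ran from 0.222 to 0.666 CPM (median 0.535) and from 0.155 to 0.508 CPM (median 0.311), and all 9 treated mice lay below the PBS median. Means were 0.499 ± 0.138 and 0.344 ± 0.136 CPM. The log2 fold change was -0.44 ± 0.23. It was -0.16 ± 0.26 in the 15 mice and -1.18 ± 0.44 in the 6 mice.

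Ccl25, which recruits thymocytes and gut T cells through Ccr9, ranged from 3.11 to 8.30 CPM (median 4.78) with PBS and from 3.02 to 5.61 (median 3.47) with HsTX1[R14A]. Of 9 treated mice 8 lay below the PBS median and 3 below the lowest PBS mouse. Means were 4.99 ± 1.39 and 3.68 ± 0.805 CPM. The log2 fold change was -0.45 ± 0.15, and -0.02 ± 0.10 once the length slope was a term. It was -0.48 ± 0.22 in the 15 mice and -0.22 ± 0.20 in the 6 mice.

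Ccl27a, known as a skin chemokine that acts through Ccr10, ranged from 93.9 to 225 CPM (median 134) with PBS and from 69.5 to 148 (median 114) with HsTX1[R14A]. Of 9 treated mice 8 lay below the PBS median and 3 below the PBS minimum. Means were 146 ± 41.6 and 108 ± 26.5 CPM, which gave a log2 fold change of -0.51 ± 0.15. It was -0.11 ± 0.12 once the length slope was a term, -0.67 ± 0.21 in the 15 mice and -0.07 ± 0.15 in the 6 mice. Its level is uncertain for another reason, as its estimated counts were not whole numbers in 21 of 21 mice, against 0 of 21 for the other 8 genes and Ccl27b, a gene copy on the same chromosome 4, has counts of its own; how reads were divided between loci was not tested. Exons of Ccl25 and Ccl27a overlap those of Elavl1 and Il11ra1 on the opposite strand, and exons of Cxcl16 those of Zmynd15. The labels and the methods name different library kits, so whether strand was used in counting is not settled here.

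**Figure D2:**
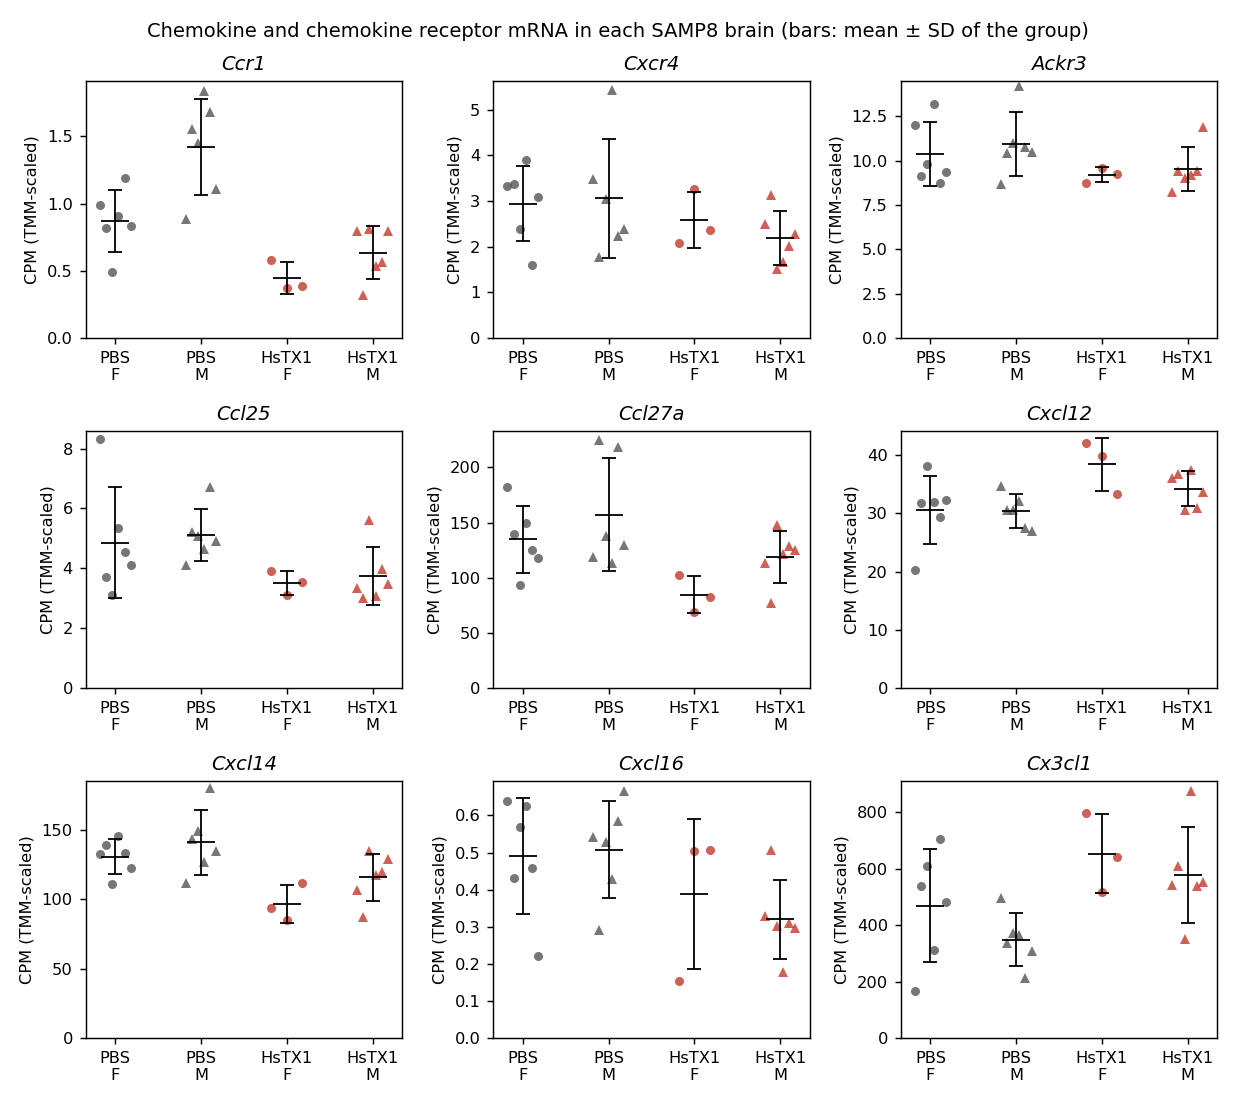
TMM-scaled CPM (linear axes from 0) of each of the 9 genes in every mouse, by treatment and sex (F, female, circles; M, male, triangles; HsTX1, HsTX1[R14A]); black bars give the mean ± SD. The Ccr1 values of the 9 treated mice lie between 0.321 and 0.809 CPM, below the PBS median of 1.05, and the ranges of the 2 treatments overlap for all 9 genes.

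**Figure D3:**
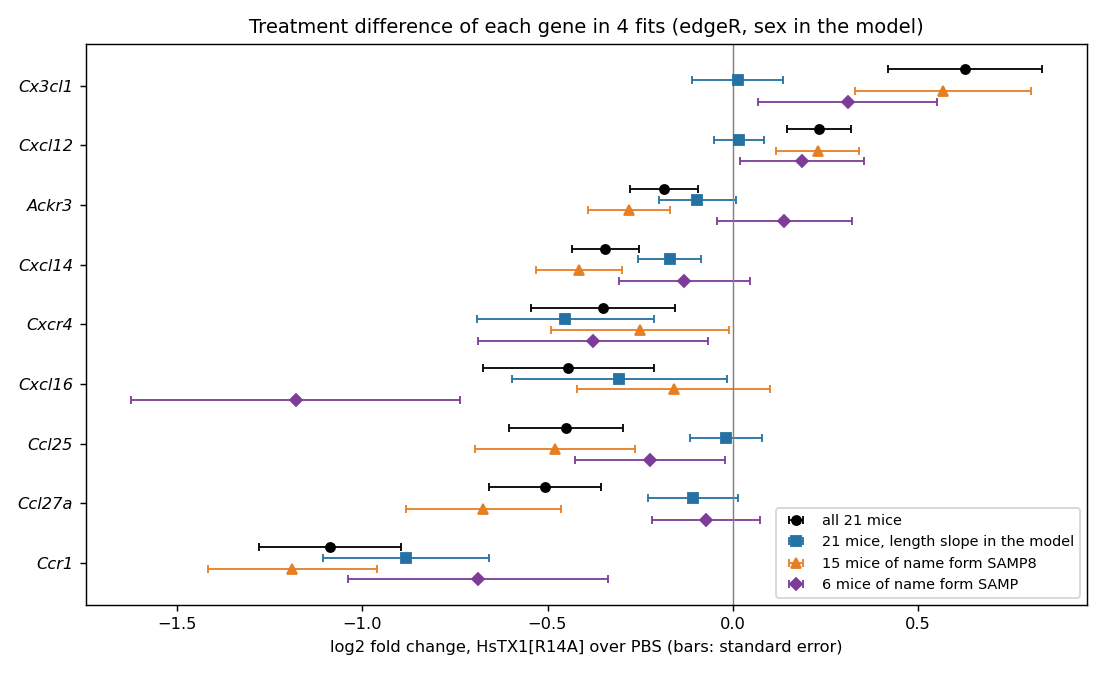
Treatment log2 fold change (HsTX1[R14A] over PBS, bars ± SE) of the 9 genes from 4 edgeR fits. With the length slope as a term Cx3cl1 moves from 0.63 to 0.01 and Ccl25 from -0.45 to -0.02, while Ccr1 moves from -1.09 to -0.88.

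The relation of each gene to the length slope was measured over the 21 mice on log2 CPM, with both measures centered within treatment and sex, by permutation (100000 resamples within treatment and sex, two-sided, adjusted over the 9 genes). The slope was computed over all tested genes with an annotated length, these 9 among them. The share of all genes that pass this test was not computed, so nothing particular to the 9 is read from it. Cx3cl1 followed the slope most closely, with Pearson's r of 0.919 (p = 1e-05, the smallest 100000 resamples can give, adjusted p = 9e-05) and Spearman's rho of 0.870 (permutation p = 2e-05, adjusted p = 0.00018). Ccl25 ran the other way, with r = -0.907 (permutation p = 3e-05, adjusted p = 0.000135) and rho = -0.774 (p = 0.00031, adjusted p = 0.0009). Both relations held without mice 103 and 90, which lie farthest out in slope (r = 0.823 and -0.812), and in the 15 mice of form SAMP8 (0.940 and -0.947).

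The same held for 3 other ligands. Cxcl12 gave r = 0.810 (permutation p = 0.00018, adjusted p = 0.000405) and rho = 0.744 (p = 0.00024, adjusted p = 0.0009). Ccl27a gave r = -0.764 (permutation p = 0.00011, adjusted p = 0.00033) and rho = -0.752 (p = 0.0004, adjusted p = 0.0009). Cxcl14 gave r = -0.605 (permutation p = 0.00335, adjusted p = 0.00603) and rho = -0.635 (p = 0.00279, adjusted p = 0.00502). Without mice 103 and 90 their r was 0.627, -0.681 and -0.663, and in the 15 mice 0.832, -0.863 and -0.673.

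No such relation passed the test for the other 4 genes. Ccr1 gave r = -0.434 (permutation p = 0.0712, adjusted p = 0.107) and rho = -0.314 (p = 0.191, adjusted p = 0.245). Ackr3 gave r = -0.350 (permutation p = 0.197, adjusted p = 0.253) and rho = -0.431 (p = 0.0818, adjusted p = 0.123). Cxcl16 gave r = -0.272 (permutation p = 0.241, adjusted p = 0.271) and rho = -0.262 (p = 0.239, adjusted p = 0.269), and Cxcr4 gave r = 0.0989 and rho = 0.0974 (permutation p = 0.698 for both, adjusted p = 0.698). Without mice 103 and 90 the 4 values of r were -0.423, -0.267, -0.126 and 0.153, and in the 15 mice -0.558, -0.274, -0.215 and 0.293. The 6 mice of form SAMP were too few for values of their own. The part of the slope in the treatment differences was not tested.

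**Figure D4:**
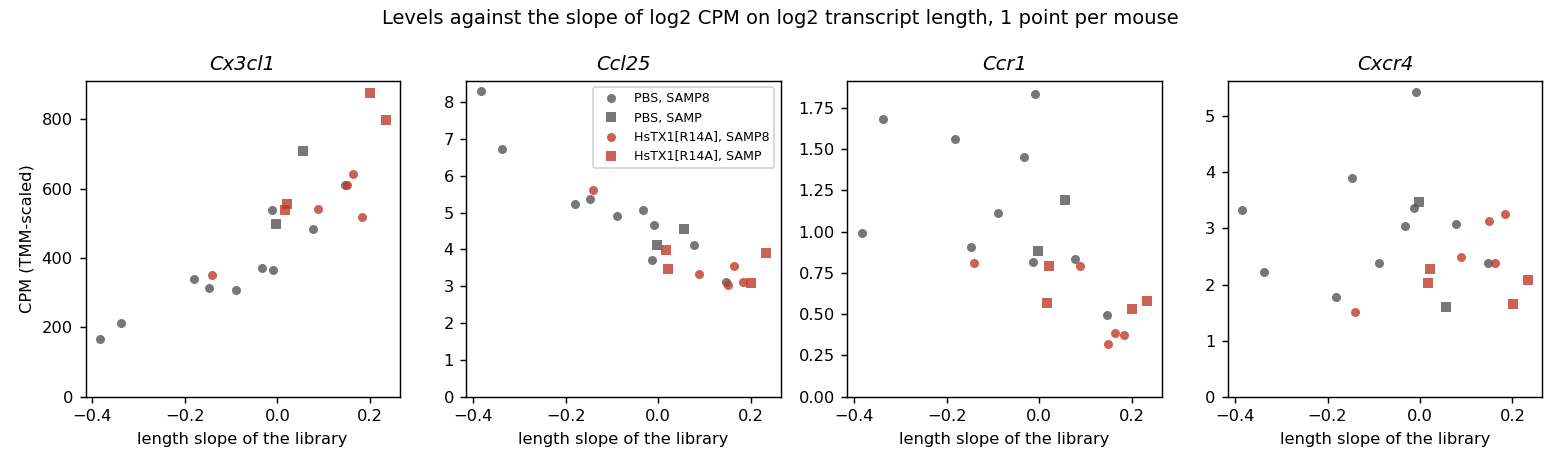
TMM-scaled CPM of Cx3cl1, Ccl25, Ccr1 and Cxcr4 against the length slope of the library (log2 CPM, less each gene's mean over all mice, per log2 of transcript length), 1 point per mouse (grey, PBS; red, HsTX1[R14A]; circles, name form SAMP8; squares, SAMP). Cx3cl1 rises and Ccl25 falls along the slope in both treatments (r = 0.919 and -0.907 within treatment and sex), whereas Cxcr4 shows no such trend (r = 0.0989).

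Sex was not used in listing the genes and could be tested. Males and females differed for 9 genes of all tested (0.0552%, of which 0.0307% were higher and 0.0245% lower in males; edgeR, FDR of at most 0.05), and 0 of the 9 chemokine genes were among them. At an unadjusted p under 0.05 there were 2, Ccr1 and Ccl27a, beside 1765 of the 16303 genes tested, and limma/voom and DESeq2 also called 0 of the 9. Mean Ccr1 was 1.42 ± 0.360 CPM in PBS-treated males (SD, n = 6) against 0.872 ± 0.231 in females (n = 6). With HsTX1[R14A] it was 0.637 ± 0.197 in 6 males and 0.581, 0.372 and 0.386 CPM in the 3 females. The male to female log2 difference was 0.64 ± 0.19 (95% confidence interval 0.24 to 1.04; edgeR, unadjusted p = 0.00277, adjusted p = 0.446), which does not pass over all genes. It was 0.88 ± 0.21 in the 15 mice of form SAMP8 and -0.13 ± 0.36 in the 6 of form SAMP. The only females of form SAMP were PBS mouse 104 and HsTX1[R14A] mouse 98.

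Ccl27a was 157 ± 50.8 CPM in PBS-treated males and 135 ± 30.3 in females, and 119 ± 23.4 in treated males against 102, 69.5 and 82.8 CPM in the 3 treated females. The log2 difference was 0.33 ± 0.15 (interval 0.01 to 0.65; edgeR, unadjusted p = 0.0418, adjusted p = 0.446) and 0.13 ± 0.10 once the length slope was a term. For the other 7 genes the log2 difference ran from -0.33 (Cx3cl1, interval -0.77 to 0.11) to 0.17 (Cxcl14, interval -0.02 to 0.36), with edgeR adjusted p from 0.446 to 0.909.

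Whether treatment acted differently in males and females was tested as an interaction. It was called for 0 of the 16303 genes (0.00%) by edgeR, limma/voom and DESeq2, with 270 genes at an unadjusted edgeR p under 0.05 and 0 of the 9 genes among them. For Ccr1 the interaction was -0.18 ± 0.41 on the log2 scale (95% interval -1.04 to 0.67), and for Cx3cl1 0.25 ± 0.43 (-0.66 to 1.17). The interval for Ccr1, with 3 treated females, includes a fall that is 2-fold larger in males and leaves out one that is 2-fold larger in females.

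The pairs of ligand and receptor were next compared over the 21 mice, centered within treatment and sex. Of 7 pairs, 4 were computed, since Ccr9, Ccr10 and Cxcr6 were not analysed here, and none passed a permutation test (100000 resamples within treatment and sex, two-sided, adjusted over the 4 pairs). Cxcl12 and Cxcr4 gave r = 0.138 (permutation p = 0.576, adjusted p = 0.576) and rho = 0.326 (p = 0.178, adjusted p = 0.25). Cxcl12 and Ackr3, its clearing receptor, gave r = -0.259 (permutation p = 0.365, adjusted p = 0.486) and rho = -0.294 (p = 0.226, adjusted p = 0.25). Without mice 103 and 84 these r were 0.471 and -0.0581, and in the 15 mice of form SAMP8 0.179 and -0.193. The receptors Cxcr4 and Ackr3 gave r = 0.476 (permutation p = 0.0607, adjusted p = 0.233) and rho = 0.364 (p = 0.13, adjusted p = 0.25), with r = 0.112 without mice 104 and 83 and 0.619 in the 15 mice. Cx3cl1 and Cx3cr1 gave r = 0.330 (permutation p = 0.117, adjusted p = 0.233) and rho = 0.265 (p = 0.25, adjusted p = 0.25), with r = 0.123 without mice 103 and 104 and 0.382 in the 15 mice.

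The genes most like each member over the same 21 mice were found among 13160 genes, as a description. Each of these had 10 or more counts per mouse and a symbol other than a Gm number or a Rik clone name. Cx3cl1 was most like Fscn1, an actin-bundling protein (r = 0.989), and Dock3 (0.982). Both also followed the length slope, with r = 0.916 and 0.951. Ccl25 was most like Ptcd3 (0.957) and Ccdc115 (0.945), and Ccl27a most like Pdap1 (0.947) and Llph (0.941), all 4 of which ran against the slope (-0.941, -0.959, -0.880 and -0.875). Cxcl12 was nearest to Ncapd3 (0.919) and Arap3 (0.896), and Cxcl14 to Rabl6 (0.922) and Zfp365 (0.907).

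The receptors and Cxcl16 had lower values of r. How high the best r among the 13160 genes searched would be by chance was not computed. Ccr1 was most like Casp1, the inflammatory caspase (0.812), and Ifrd1 (0.810). Cxcr4 was most like the interneuron calcium-binding protein gene Calb2 (0.814) and Aqp1 (0.809), a water channel of the choroid plexus. The summed level of 10 choroid plexus markers, Aqp1 among them, ran from 76.8 to 1163 CPM among PBS-treated and from 64.7 to 876 among treated brains. How Cxcr4 relates to the other markers of that list was not tested. Ackr3 was most like Dcdc2a (0.878) and Ctsc (0.810), and Cxcl16 most like Hspb8 (0.821) and Tmie (0.820).

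Of 35 further chemokine ligands 10 were analysed, and 4 were lower and 0 higher with HsTX1[R14A], beside 16.1% and 15.5% of all genes. All 10 had a negative log2 fold change, with a median of -0.68, beside 51.4% of all genes. Not called were Ccl9 (-0.79 ± 0.31), Cxcl10 (-1.04 ± 0.49) and Cxcl13 (-0.87 ± 0.46). Nor were Ccl27b (-0.41 ± 0.54), Ccl17 (-0.29 ± 0.24) and Ccl19 (-0.13 ± 0.30). Values of these ligands with the length slope as a term are not given here. Ccl6, a myeloid CC ligand, was 1.90 ± 0.656 CPM with PBS and 1.22 ± 0.489 with HsTX1[R14A], a log2 fold change of -0.71 ± 0.21 (edgeR adjusted p = 0.0227). Ccl21a, a ligand of Ccr7, fell from 1.24 ± 0.330 to 0.787 ± 0.209 CPM (-0.68 ± 0.18, edgeR adjusted p = 0.0180), although it has near-identical copies that may share its reads. Ccl28, which shares the receptor Ccr10 with Ccl27a, changed by -0.23 ± 0.08 (edgeR adjusted p = 0.0362), from 5.89 ± 0.650 to 5.07 ± 0.589 CPM. Pf4, the platelet and border macrophage chemokine, changed by -0.68 ± 0.24 (edgeR adjusted p = 0.0387) on 2 to 22 counts per library, and it stands in the border macrophage list above as well.

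Of 21 further receptors 6 are reported, with 1 higher, 0 lower and a median log2 fold change of -0.04. Among all genes 15.5% were called higher and 16.1% lower, so nothing is read from that count of receptors. Ackr1, the atypical receptor of venular endothelium and red cells, was 7.32 ± 3.42 CPM with PBS and 12.2 ± 3.26 with HsTX1[R14A] (0.81 ± 0.25, edgeR adjusted p = 0.0246). Of 12 endothelial markers 3 were higher and 0 lower, beside the same shares of all genes. Their summed levels were 118 to 211 CPM in PBS-treated and 130 to 243 in treated brains. Of 5 erythrocyte markers 0 were called, with sums of 5.82 to 157 and 15.1 to 87.6 CPM, and the part of either cell type in the Ackr1 difference was not tested. The fractalkine receptor Cx3cr1 was 61.2 ± 5.89 CPM with PBS and 57.5 ± 6.05 with HsTX1[R14A], a log2 fold change of -0.10 ± 0.07 that did not pass (edgeR adjusted p = 0.245).

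**Figure D5:**
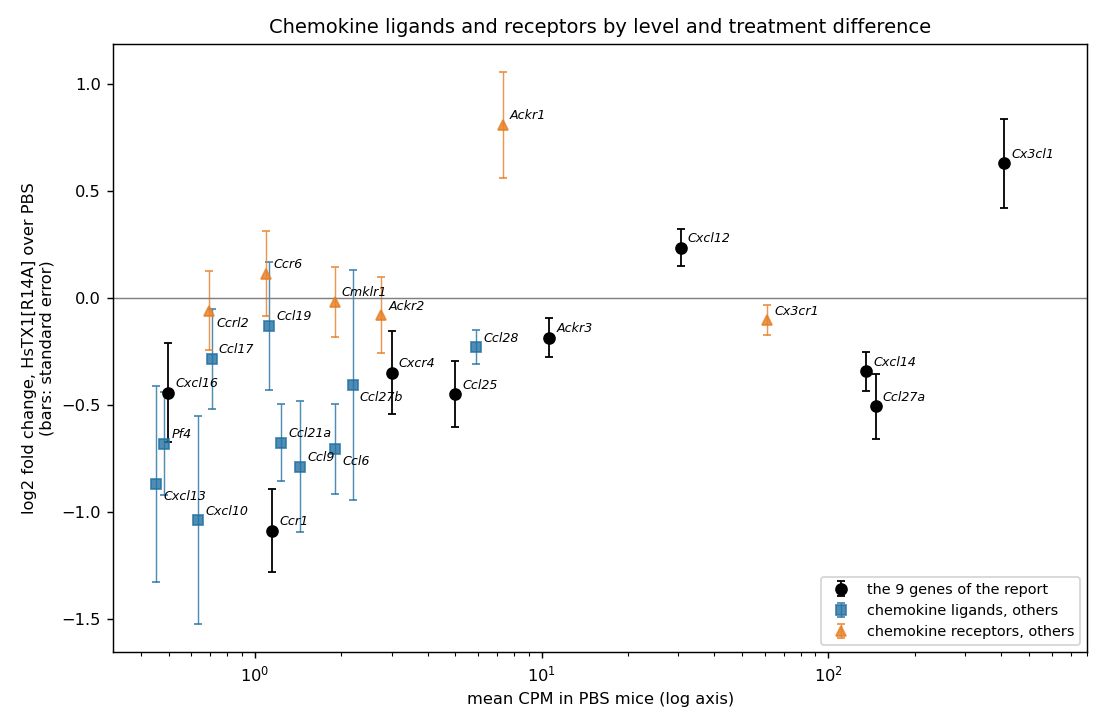
Treatment log2 fold change (HsTX1[R14A] over PBS, bars ± SE) against mean CPM in PBS-treated mice (log axis) for the 9 genes (black), 10 other chemokine ligands (blue) and 6 other chemokine receptors (orange). The 10 other ligands all lie below 0, with Ccl19 (-0.13 ± 0.30) nearest to it, and Ackr1 (0.81) and Cx3cl1 (0.63) lie highest.

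Of 43 genes that carry, limit or process chemokine signals, 41 were analysed, with 4 higher, 6 lower and a median log2 fold change of 0.01. Both counts are below the shares of all genes called (15.5% higher, 16.1% lower), so nothing particular to this list is read from them. Higher were the kinase Ptk2b (0.47 ± 0.14, edgeR adjusted p = 0.0245), Stat3 (0.41 ± 0.13, edgeR adjusted p = 0.0285), Pik3cd (0.45 ± 0.16, edgeR adjusted p = 0.0343) and Elmo1. Lower were Dpp4, the peptidase that trims Cxcl12 (-0.67 ± 0.14, edgeR adjusted p = 0.0151), Rap1a (-0.54 ± 0.13, edgeR adjusted p = 0.0161), the G protein subunit Gng5 (-0.59 ± 0.15, edgeR adjusted p = 0.0177), Cdc42, Rac2 and Rgs10. The inhibitory G protein subunits Gnai1, Gnai2 and Gnai3 had log2 fold changes of -0.05 ± 0.06, -0.04 ± 0.07 and -0.08 ± 0.07 and did not pass. With the length slope as a term 0 genes of all those tested were called for treatment by edgeR, with 1865 at an unadjusted p under 0.05, so the calls named here share that limit.

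Markers of other cell types were counted by the same rule, beside the 15.5% of all genes called higher and 16.1% called lower. Of 10 astrocyte markers 4 were lower (sums of 3413 to 5087 CPM with PBS and 3413 to 5128 with HsTX1[R14A]), as were 4 of 8 oligodendrocyte markers (4396 to 6728 and 3315 to 4907). Of 10 neuronal markers 1 was higher (6040 to 8728 and 7008 to 10050), and of 13 mural and meningeal markers 2 were higher (176 to 280 and 175 to 281). Of 3 lymphocyte markers analysed 1 was lower (26.3 to 46.2 and 12.8 to 36.2), and of 10 choroid plexus markers 0 were called. The summed levels of the 2 groups overlapped for every list.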

How the data were processed

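Whole-brain RNA of 21 mice was sequenced with 1 library per mouse. Per the methods and the submitters' processing notes, the authors used STAR (GRCm38) for alignment and Salmon for quantification. The deposited values are unnormalized estimated counts of 16318 genes, and how these genes were chosen was not given in the sources used here. Values within 0.01 of a whole number made up 90.496%, and rounding preceded every test. The table also holds log2 fold changes, p-values and FDR of the authors' own comparison, and 53 per-sample columns (CPM and other libraries), none of which were used. Tests were run by gene ID, since 24 symbols stand for several IDs.

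Genes that passed filterByExpr (16303, all 9 members among them) were scaled by the trimmed mean of M values (TMM) and tested with edgeR 4.0.16 (R 4.3.3; glmQLFit, glmQLFTest) on terms for sex and treatment, and p-values were adjusted over all genes by the Benjamini-Hochberg method (FDR of at most 0.05). Standard errors were the log2 fold change over the root of F. The interaction was fitted separately. The log2 CPM used for relations carries a prior count of 2. Mouse numbers do not pair mice across groups. On simulated counts with 200 of 16301 genes changed 2-fold in the treatment contrast, 172 were recovered with 8 false calls. The simulated counts held no length slope and no name form effect. These rates therefore do not carry over to libraries in which both move with treatment. Library totals of 14917174 to 47613792 leave Ccr1 and Cxcl16 with few counts per library.

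The members and all lists were chosen with earlier results of these data known. Named genes were the 9 members, the 3 called genes with the smallest p in each direction of each chemokine list with Cx3cr1, and the 2 genes most like each member. Pf4, Elmo1, Cdc42, Rac2, Rgs10, the 3 Gnai genes and the markers named beside Ccr1 were added after their values were seen. The further chemokine ligands that were not called were also added then. A gene of the receptor list is not reported here and was left out of its counts. Listed genes were matched by symbol and otherwise by Ensembl ID. Alternatives were limma/voom 3.58.1, DESeq2 1.42.0, relative log expression (RLE) scaling, other count filters, name form or length slope as covariate, each name form alone, no sex term, the 12 PBS mice alone for sex, and each mouse left out. Name forms come from the library names of the study's supplementary table.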

Additional observations from a re-analysis of the deposited data

Results flagged for a closer look

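For the 9 genes, 27 groups of 6 mice were searched for a mouse that stands apart from the rest of its group by Dixon's ratio. The groups were PBS-treated females, PBS-treated males and HsTX1[R14A]-treated males, as the 3 treated females were too few to search. In 2 of the 27 groups a mouse stood apart, where chance gives about 1 in 20 groups. Ackr3 was 11.91 CPM in the male HsTX1[R14A] mouse 92, with the next of the 6 males at 9.425 (gap over range 0.676, limit 0.625). Ccl25 was 5.614 CPM in the male HsTX1[R14A] mouse 93, with the next at 3.988 (0.628). Without mouse 92 the treatment log2 fold change of Ackr3 was -0.23, and without mouse 93 that of Ccl25 was -0.54.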

How the results depend on the processing

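The 5144 treatment calls became 1999 with name form as covariate, 2984 with no sex term, and 0 with the length slope as covariate, in the 15 mice of form SAMP8 or in the 6 of form SAMP; of the 9 genes, 3, 3, 0, 0 and 0 were then called in place of 6. With each mouse left out, treatment calls ran from 2289 to 6614 and calls among the 9 genes from 2 to 6. The low counts came without PBS mouse 90 (2289) and HsTX1[R14A] mice 98 (3005), 88 (3121), 81 (3263) and 71 (3332), and the cause was not tested. In these 21 fits Ccr1 and Cxcl14 stayed past the threshold in 21, Ccl25 in 13 and Cxcl12 in 10. Ccl27a stayed in 19 (lost without PBS 90 or HsTX1[R14A] 71) and Cx3cl1 in 18 (lost without PBS 90 or HsTX1[R14A] 81 or 98). Each of these genes kept its sign in all 21 fits. The 9 genes were listed with this contrast in view, so nothing about treatment is read from these counts of fits. Ccl25 was lost without PBS 73 or 90 or HsTX1[R14A] 71, 72, 74, 81, 88 or 98, and Cxcl12 without PBS 73, 90, 91, 101 or 105 or the same 6 HsTX1[R14A] mice; edgeR adjusted p was at most 0.077 and 0.106. A minimum of 10 counts in every mouse left Ccr1 and Cxcl16 untested. The 9 sex calls became 26 with DESeq2 and 1 with that minimum and ran from 7 to 11 with a mouse left out; none was a chemokine gene. Interaction calls stayed at 0 in all alternatives run, and that fit was not run on the 6 mice of form SAMP. With a mouse left out, r ran from 0.0869 to 0.362 for Cxcl12 and Cxcr4 and from -0.373 to -0.0617 for Cxcl12 and Ackr3. It ran from 0.278 to 0.603 for Cxcr4 and Ackr3 and from 0.184 to 0.435 for Cx3cl1 and Cx3cr1. No permutation test was run on these values of r. No paired analysis was run, as mouse numbers are not shared between groups. The paper assigned treatment at random within cages, but the labels used here do not give the cage.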
